A study of Homo sapiens with 6 samples.

Results

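The genes described here are the nuclear genes for the protein subunits of oxidative phosphorylation, read complex by complex in FaDu cells that carry a hairpin RNA against NSUN2 or carry none. They were chosen by name: the protein-coding NDUFA, NDUFB, NDUFC, NDUFS and NDUFV genes, SDHA to SDHD, the UQCR genes with CYC1, the COX4 to COX8 subunit genes, and the ATP5F1, ATP5MC and ATP5P genes with ATP5ME, ATP5MF and ATP5MG. That gave 85 genes among the 58825 gene identifiers of the table, 37 in complex I, 4 in complex II, 10 in complex III, 19 in complex IV and 15 in complex V. NDUFA4 and its paralogue NDUFA4L2 were counted with complex IV, where the NDUFA4 protein is known to sit. COX7A2L, a subunit-like factor of respiratory supercomplexes, was kept with complex IV because its symbol falls under the rule.

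FaDu is an established cell line that came from a squamous carcinoma of the human hypopharynx. The group named FaDu holds 3 libraries of these cells without a hairpin, and the group named shNSUN2 holds 3 libraries of the same line carrying a short hairpin RNA against NSUN2, a methyltransferase that places 5-methylcytosine on tRNAs and some mRNAs. The labels name no hairpin sequence or clone, and cells with a control hairpin were not analysed here, so loss of NSUN2 and the delivery of a hairpin cannot be told apart. Nothing in the labels says that replicates came from separate cultures, so p-values measure only the spread between these libraries, which may be technical. The series describes its repeats as paired without saying what a pair has in common. The main fit does not use pairs, and a fit with the replicate number as a block is given beside it.

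The complexes sit in the inner mitochondrial membrane. Complex I takes electrons from NADH and complex II from succinate, both pass them by way of ubiquinone to complex III, cytochrome c carries them to complex IV, and complex V uses the proton gradient built by complexes I, III and IV to make ATP. Most subunits are encoded in the nucleus. The mitochondrial genome encodes core subunits of complexes I, III, IV and V, while complex II is wholly nuclear. NRF1, the ETS factor GABP and YY1 are transcription factors known for binding near the start sites of many of these nuclear genes.

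Sequences show a feature of these genes that bears on how their reads can be assigned. ATP5MC1 (chromosome 17, 48892765 to 48895871, GRCh38), ATP5MC2 (chromosome 12, 53632726 to 53677408) and ATP5MC3 (chromosome 2, 175176258 to 175184607) all encode subunit c of the proton-driven rotor ring of ATP synthase. In the GENCODE 29 transcripts the last 77 codons of the 3 genes translate to the same residues, and the genes differ there only in synonymous bases. The stretches below run 5′ to 3′ on the coding strand without the stop codon, and capitals mark the 57 of 231 positions at which the 3 genes are not all alike.
ATP5MC1: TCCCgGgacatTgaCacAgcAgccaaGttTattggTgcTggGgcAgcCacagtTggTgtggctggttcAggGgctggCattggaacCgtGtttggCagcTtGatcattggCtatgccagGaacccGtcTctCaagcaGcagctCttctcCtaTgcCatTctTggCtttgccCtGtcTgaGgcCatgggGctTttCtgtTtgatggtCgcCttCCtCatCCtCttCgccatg
ATP5MC2: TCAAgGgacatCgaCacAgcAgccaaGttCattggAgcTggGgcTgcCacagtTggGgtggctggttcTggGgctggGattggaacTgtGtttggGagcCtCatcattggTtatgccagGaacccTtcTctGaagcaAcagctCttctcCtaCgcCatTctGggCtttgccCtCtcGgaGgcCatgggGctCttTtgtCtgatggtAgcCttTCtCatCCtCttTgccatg
ATP5MC3: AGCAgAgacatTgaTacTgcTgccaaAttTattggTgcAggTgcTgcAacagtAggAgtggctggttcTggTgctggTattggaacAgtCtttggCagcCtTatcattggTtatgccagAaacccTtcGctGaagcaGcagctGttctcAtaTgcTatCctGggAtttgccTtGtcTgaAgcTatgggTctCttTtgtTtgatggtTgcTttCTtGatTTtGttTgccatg
ATP5MC1 and ATP5MC2 differed at 27 of the 231 positions (88.3% identity), and each of them differed from ATP5MC3 at 46 (80.1% identity). The longest run of identical bases was 17 between ATP5MC2 and ATP5MC3, 17 between ATP5MC1 and ATP5MC2, and 11 between ATP5MC1 and ATP5MC3. Reads of ordinary length from this part of the mRNA therefore cross several differing bases.

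Promoter windows of 300 bases (250 before to 50 after a start site) were held in the RefSeq table on GRCh38.p14 for 67 of the 85 genes. They were searched on both strands for the NRF1 core GCGCATGCG, the ETS core CCGGAAG and the YY1 motif AAGATGGCG, and no matches of different motifs overlapped. The stretches shown hold matches in 3 genes whose transcripts were called higher in shNSUN2 and in SDHD, which was not called. They run 5′ to 3′ on the gene's strand, and capitals mark the matches, including runs where matches on both strands overlap.
ATP5F1C: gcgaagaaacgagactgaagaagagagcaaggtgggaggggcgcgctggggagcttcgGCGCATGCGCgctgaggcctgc
NDUFS3: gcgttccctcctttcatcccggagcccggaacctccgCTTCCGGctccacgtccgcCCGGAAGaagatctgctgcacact
ATP5F1A: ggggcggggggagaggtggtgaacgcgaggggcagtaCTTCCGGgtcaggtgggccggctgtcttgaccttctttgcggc
SDHD: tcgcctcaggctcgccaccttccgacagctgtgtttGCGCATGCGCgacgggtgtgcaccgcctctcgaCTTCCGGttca
The ATP5F1C stretch (chr10:7788097-7788176, + strand) has the NRF1 core on both strands, where it reads as a palindrome. The NDUFS3 stretch (chr11:47578935-47579014, + strand) has the ETS core in both orientations, and the ATP5F1A stretch (chr18:46098302-46098381, - strand) has it once. The SDHD stretch (chr11:112086727-112086806, + strand) has both the NRF1 and the ETS core. Over the 67 genes with a window, the NRF1 core was found in 11 (16.4%), against 2.34% of 27305 genes with a window and 3.91% of the 12290 of those that were tested. The ETS core was found in 20 (29.9%, against 12.2% and 20.6%), and the YY1 motif in 9 (13.4%, against 2.14% and 4.17%). Of the 10 genes called higher that have a window, the NRF1 core was in 1, the ETS core in 2 and the YY1 motif in 2 (NDUFA6 and NDUFA9). Of the 55 genes not called, these were in 10, 18 and 7. A match describes letters only, and binding was not measured here. Genes without a window in the table include ATP5F1B, ATP5F1D, ATP5MC3, ATP5MF, COX4I2, COX6C, COX7A1, CYC1, NDUFA4, NDUFA4L2, NDUFB5, NDUFB9, NDUFC2, NDUFS5, SDHC, UQCRB and UQCRHL.

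The values are estimated counts per gene, with library totals of 53612358 to 72788971. Levels are given as CPM, each count taken relative to its library's total after scaling by edgeR's TMM factors. Of all genes, 19081 were tested with edgeR's quasi-likelihood test, and those with an adjusted p under 0.05 (Benjamini-Hochberg, over all tested genes) count as called. NSUN2 (ENSG00000037474, chromosome 5, 6599239 to 6633291) had 169, 173 and 156 CPM in FaDu replicates 1, 2 and 3 and 50.4, 34.7 and 39.6 CPM in the shNSUN2 replicates (log2 fold change -1.997, SE 0.16, adjusted p = 0.000526 by edgeR). An exact permutation test of these CPM, two-sided, reached p = 0.1, and 3 libraries against 3 can go no lower. Markers of squamous epithelium summed to 3509 to 3685 CPM in FaDu and 1822 to 2207 CPM in shNSUN2. All 8 were detected, and 6 of them were called lower, KRT5 and KRT14 among them, and 1 (EPCAM) higher. Of all tested genes, 9.97% were called lower and 8.54% higher. In bulk libraries, fewer cells of a type and less RNA per cell cannot be told apart.

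Markers of other tissues also differed between the groups. Prostate markers summed to 13.8 to 17.4 CPM in FaDu and 29.4 to 48.9 CPM in shNSUN2, with 3 of 5 called higher and 1 lower, and MSMB listed at 0 in every FaDu library. Plasma cell markers summed to 0 to 0.267 CPM and 1.90 to 5.11 CPM, with 3 of 3 tested called higher. Muscle markers summed to 48.7 to 53.9 CPM and 21.5 to 33.6 CPM (2 of 5 tested higher, 2 lower), with ACTG2 and CNN1 listed at 0 in every FaDu library. Most of the FaDu sum was TNNT1 and ACTA2, the 2 called lower (means 41.6 and 8.93 CPM in FaDu, 18.7 and 2.78 CPM in shNSUN2). DES and ACTG2, called higher, and MYH11, not called, were highest in shNSUN2 replicate 1. They had 2.75, 1.49 and 8.29 CPM there and at most 0.459, 0.355 and 1.53 CPM elsewhere. Fibroblast markers summed to 8.64 to 9.45 CPM and 6.24 to 11.4 CPM (1 of 4 tested higher), and leukocyte markers to 8.18 to 10.3 CPM and 9.04 to 11.7 CPM, nearly all of it CD14, with PTPRC at 0 in all 6 libraries. Their part in the results below was not tested.

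Replicate 3 of shNSUN2 stood apart from replicates 1 and 2. Across 19033 genes, its log2 difference from their mean had a Spearman correlation of 0.466 with GC content and -0.283 with transcript length, where the points share these libraries. The median of that difference was 0.47 over the 81 subunit genes tested and 0.05 over all genes, and replicate 3 was the highest of the 6 libraries for 66 of the 81, against 28.6% of all tested genes. Subunit transcripts are short, with a median of 761 bases against 2129 for all tested genes, and 53 of the 81 are under 1000 bases. The part of GC content, length or the library's preparation in the results was not tested, and the overall counts, the medians by complex and the 16 called genes are therefore given with and without this library.

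Subunit genes of oxidative phosphorylation were higher in shNSUN2 more often than lower, at small folds. Of 85 genes, 81 were tested, and 15 were called higher and 1 lower, while 8.54% of all tested genes were called higher and 9.97% lower. The log2 fold change was above 0 for 70 of the 81 (86.4%, against 49.6% of all tested genes), with a median of 0.29 against -0.01 over all genes. All 3 shNSUN2 libraries lay above all 3 FaDu libraries for 39 genes (20.3% of all tested genes did so) and below for 2 (22.1% of all), and the groups overlapped for 40. At an unadjusted p under 0.05, 30 were higher and 3 lower, against 16.4% and 17.3% of all tested genes, and DESeq2 called 18 higher and 1 lower, against 9.04% and 9.66% of its genes with an adjusted p. With the replicate number as a block, edgeR called 7 subunit genes higher and 1 lower, where 969 and 1401 of 19081 genes were called. The median log2 difference from the FaDu mean, taken over the 81 genes, was 0.14 in shNSUN2 replicate 1, 0.10 in replicate 2 and 0.59 in replicate 3, and between -0.02 and 0.02 in the FaDu libraries. Replicate 3 was the highest library for all 15 genes called higher.

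**Figure D1:**
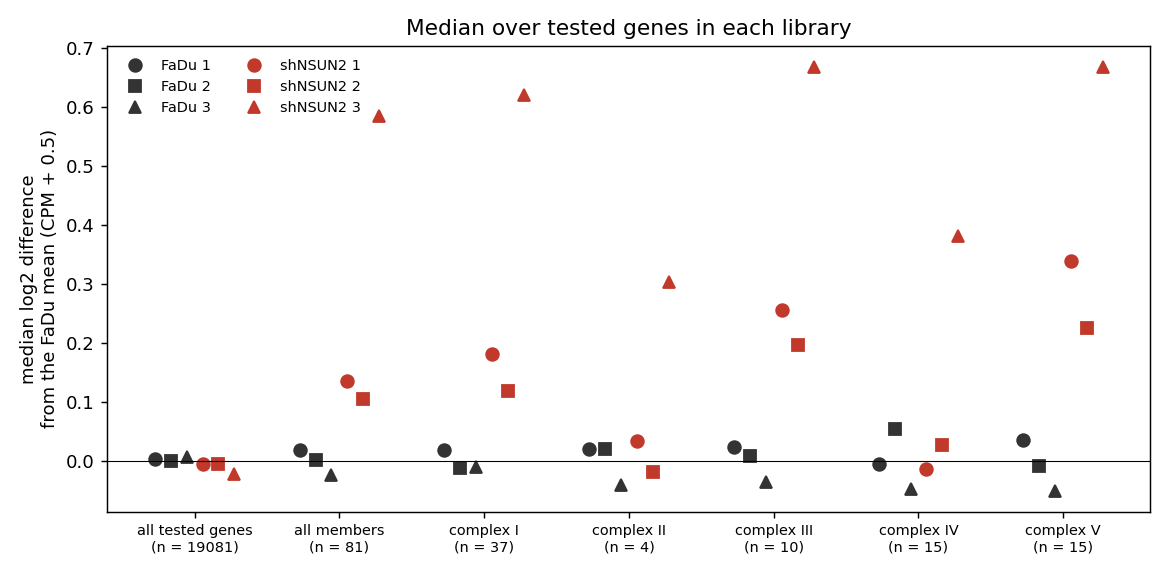
Median log2 difference from the FaDu mean (CPM + 0.5) in each of the 6 libraries, over all 19081 tested genes, over the 81 tested subunit genes and by complex (circle, square and triangle stand for replicates 1, 2 and 3). Replicate 3 of shNSUN2 is the highest point in every set of subunit genes, at 0.59 over the 81, and the other 2 shNSUN2 libraries lie above all FaDu libraries over the 81 genes and in complexes I, III and V.

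Without shNSUN2 replicate 3 the median log2 fold change of the 81 genes was 0.16, 57 were above 0 and 74 had a lower value than with it. In that fit 17 genes were called higher, against 10.5% of all tested genes, and 2 lower, against 11% of all. NDUFA6 was no longer called (adjusted p = 0.0608), while UQCRC2, UQCR10, NDUFA4 and COX4I1 were now called, COX4I1 as lower (these 4 were chosen for mention after their values were seen). The number called higher depended more on the FaDu libraries: it was 3 without FaDu replicate 1, 4 without replicate 2 and 3 without replicate 3, where 626, 478 and 493 of all genes were called higher in place of 1629. It was 10 without shNSUN2 replicate 1 and 15 without replicate 2. NDUFC2, ATP5MC3 and NDUFA4L2 were called in all 6 fits that left out a library, and ATP5PB in 5 of them, all but the fit without FaDu replicate 3.

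**Figure D2:**
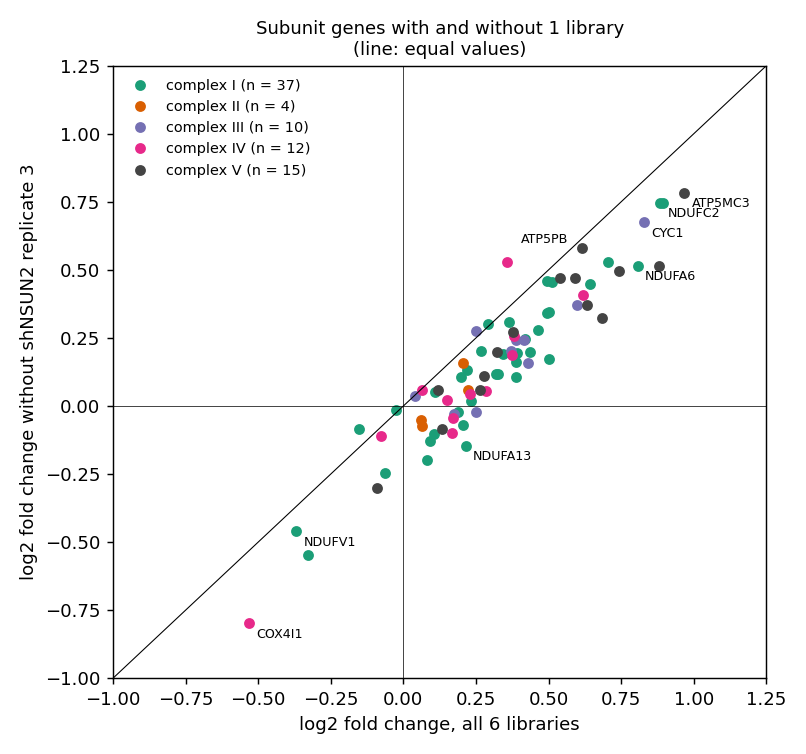
Log2 fold change of each subunit gene, shNSUN2 against FaDu, from all 6 libraries (horizontal axis) and without shNSUN2 replicate 3 (vertical axis), coloured by complex, with a line of equal values. The 78 genes above -1 are drawn (COX6B2, COX8C and NDUFA4L2 lie at -1 or lower), most points lie under the line, and ATP5MC3 and NDUFC2 remain at 0.78 and 0.75.

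Complex I has 37 nuclear subunit genes in the rule, all tested, of which 8 were called higher and 0 lower. Of all tested genes, 8.54% were called higher and 9.97% lower. Of the 37, 32 had a log2 fold change above 0, and the median was 0.33 (0.16 without shNSUN2 replicate 3). Their summed level was 2725, 2629 and 2609 CPM in FaDu and 2848, 2952 and 4004 CPM in shNSUN2, a ratio of means of 1.23 (1.09 without replicate 3). Every shNSUN2 sum lay above every FaDu sum. At an unadjusted p under 0.05, 14 genes were higher and 1 lower, against 16.4% and 17.3% of all tested genes. DESeq2 called 8 and 0, against 9.04% and 9.66% of its genes with an adjusted p. The count of 8 was 1 without FaDu replicate 1, 1 without FaDu replicate 2, 2 without FaDu replicate 3 and 5 without shNSUN2 replicate 1.

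**Figure D3:**
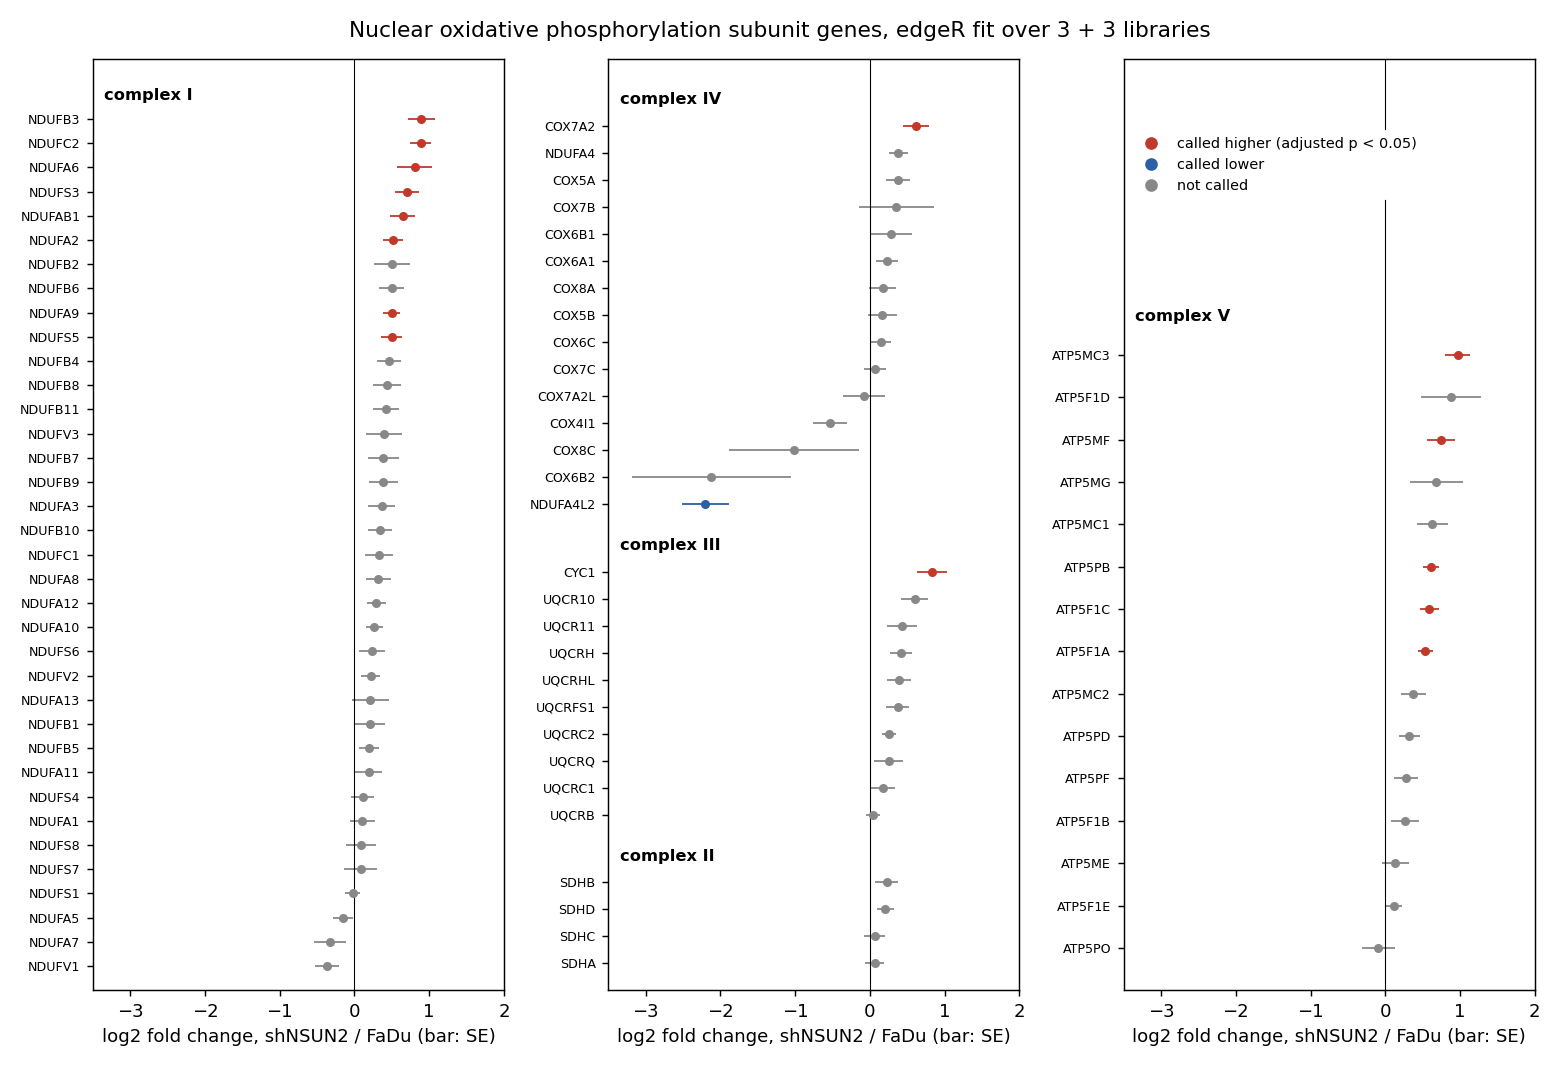
Log2 fold change of 80 of the 81 tested subunit genes (shNSUN2 against FaDu, edgeR, bars are the SE), grouped by complex and ordered by size, with red for genes called higher, blue for genes called lower and grey for genes not called. Complexes III and V have 10 of 10 and 14 of 15 points above 0, and NDUFA4L2 is the single gene called lower.

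The membrane arm of complex I pumps protons. All 20 of its nuclear subunit genes had a log2 fold change above 0 (16 of 20 without shNSUN2 replicate 3), and NDUFC2, NDUFB3 and NDUFS5 were called higher. Among all tested genes, 49.6% were above 0 and 8.54% were called higher. NDUFC2 (ENSG00000151366, chromosome 11, 78068304 to 78080219) encodes an accessory subunit of this arm. Its level was 44.1, 41.6 and 46.3 CPM in FaDu and 74.9, 72.5 and 96.4 CPM in shNSUN2. The groups were well apart, with the lowest shNSUN2 library above the highest FaDu library, and the log2 fold change was 0.88 (SE 0.14, adjusted p = 0.00672 by edgeR). Over the fits leaving out 1 library it ranged from 0.75 to 0.96, with adjusted p of 0.00302 to 0.0419. A read-through gene with KCTD14 overlaps NDUFC2, and its own level reached 1.67 CPM in shNSUN2 replicate 2 and at most 0.355 CPM elsewhere. NDUFB3 (chromosome 2, 201071433 to 201085750), a small accessory subunit, had 11.2, 12.7 and 14.6 CPM in FaDu and 22.9, 19.9 and 28.5 CPM in shNSUN2. Its log2 fold change was 0.89 (SE 0.18, adjusted p = 0.0144 by edgeR), and 0.75 without shNSUN2 replicate 3 (adjusted p = 0.0168). The adjusted p was 0.0633 without FaDu replicate 1 and 0.0638 without FaDu replicate 2. NDUFS5, an accessory subunit, was the complex I gene with the highest level per transcript length, at 427 CPM per kilobase in FaDu and 603 in shNSUN2. In CPM it stood at 241, 231 and 228 against 298, 291 and 397, with replicate 3 far above the other two. Its log2 fold change was 0.50 (SE 0.14, adjusted p = 0.0455 by edgeR), and 0.34 without shNSUN2 replicate 3 (adjusted p = 0.0161).

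The 17 other membrane arm genes were not called. Over all 6 libraries, NDUFB9 and NDUFA1 followed NDUFS5 in level per length, with 226 and 172 CPM per kilobase in FaDu and 296 and 185 in shNSUN2, where NDUFB8 and NDUFB1 had 191 and 187. NDUFB9 had 187, 178 and 144 CPM against 198, 181 and 288 CPM, and NDUFA1 had 136, 132 and 127 CPM against 119, 125 and 180 CPM. In both genes the groups overlapped, and NDUFA1 had a log2 fold change of 0.10 with shNSUN2 replicate 3 and -0.10 without it. NDUFA11, NDUFA13 and NDUFB1 also changed sign without that library, to -0.02, -0.15 and -0.07. NDUFB2 had 46.5, 37.9 and 41.5 CPM against 49.5, 44.8 and 84.0 CPM, and NDUFB6 15, 17.5 and 15.4 CPM against 21.3, 19.2 and 27.2 CPM. Both had a log2 fold change of 0.50, with SE of 0.24 and 0.17 and adjusted p of 0.182 and 0.076. Without shNSUN2 replicate 3 they were 0.17 and 0.35. These genes and those named in the following paragraphs as not called were picked after their values were seen, beyond the ones the naming rule gives.

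The Q module passes electrons to ubiquinone, and 3 of its 7 genes were called higher, against 8.54% of all tested genes. NDUFS3, a core subunit (chromosome 11, 47565336 to 47584562), had 44.4, 45.4 and 47.1 CPM in FaDu and 66.8, 64.6 and 91.8 CPM in shNSUN2. The FaDu libraries lay close together and every shNSUN2 library was above them, and the log2 fold change was 0.71 (SE 0.16, adjusted p = 0.0203 by edgeR), or 0.53 without replicate 3. In NDUFA9, an accessory subunit at the junction of the arms (chromosome 12, 4649095 to 4694317), 113, 104 and 103 CPM compared with 152, 139 and 159 CPM. This is a change to which replicate 3 added little, with a log2 fold change of 0.50 (SE 0.11, adjusted p = 0.0204) and 0.46 without it. NDUFA6, an accessory subunit (chromosome 22, 42085525 to 42090955), had 127, 124 and 125 CPM against 145, 213 and 301 CPM. The shNSUN2 libraries of this gene spread over a wide range, and its call (log2 fold change 0.81, SE 0.24, adjusted p = 0.0495 by edgeR) was the closest to the threshold of the 16. Without replicate 3 the log2 fold change was 0.51 and the call was lost (adjusted p = 0.0608). The core subunits NDUFS7 and NDUFS8 were not called, with log2 fold changes of 0.08 and 0.09, which were -0.20 and -0.13 without shNSUN2 replicate 3. Over the 7 genes the median was 0.09, and -0.08 without that library.

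The N module oxidises NADH, and 1 of its 9 genes was called higher, close to the 8.54% called higher among all tested genes. NDUFA2, an accessory subunit (chromosome 5, 140638740 to 140647785), had 48.6, 50.6 and 45.4 CPM in FaDu and 59.6, 72.5 and 74.3 CPM in shNSUN2. Its groups did not overlap (log2 fold change 0.51, SE 0.13, adjusted p = 0.0318 by edgeR, and 0.46 without shNSUN2 replicate 3). NDUFV1, which carries the NADH-binding flavin site, went the other way without passing the test. It had 280, 263 and 228 CPM against 158, 214 and 224 CPM, every shNSUN2 library under every FaDu library (log2 fold change -0.37, SE 0.16, adjusted p = 0.145). NDUFS1, the largest core subunit, differed little, with 123, 127 and 130 CPM against 127, 123 and 123 CPM (log2 fold change -0.02, SE 0.10). NDUFAB1, the mitochondrial acyl carrier protein that sits in both arms (chromosome 16, 23581002 to 23596356), had 66.1, 56.9 and 57.3 CPM against 81.1, 82.5 and 118 CPM. Its log2 fold change was 0.64 (SE 0.17, adjusted p = 0.0369 by edgeR), and 0.45 without shNSUN2 replicate 3 (adjusted p = 0.0203).

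**Figure D4:**
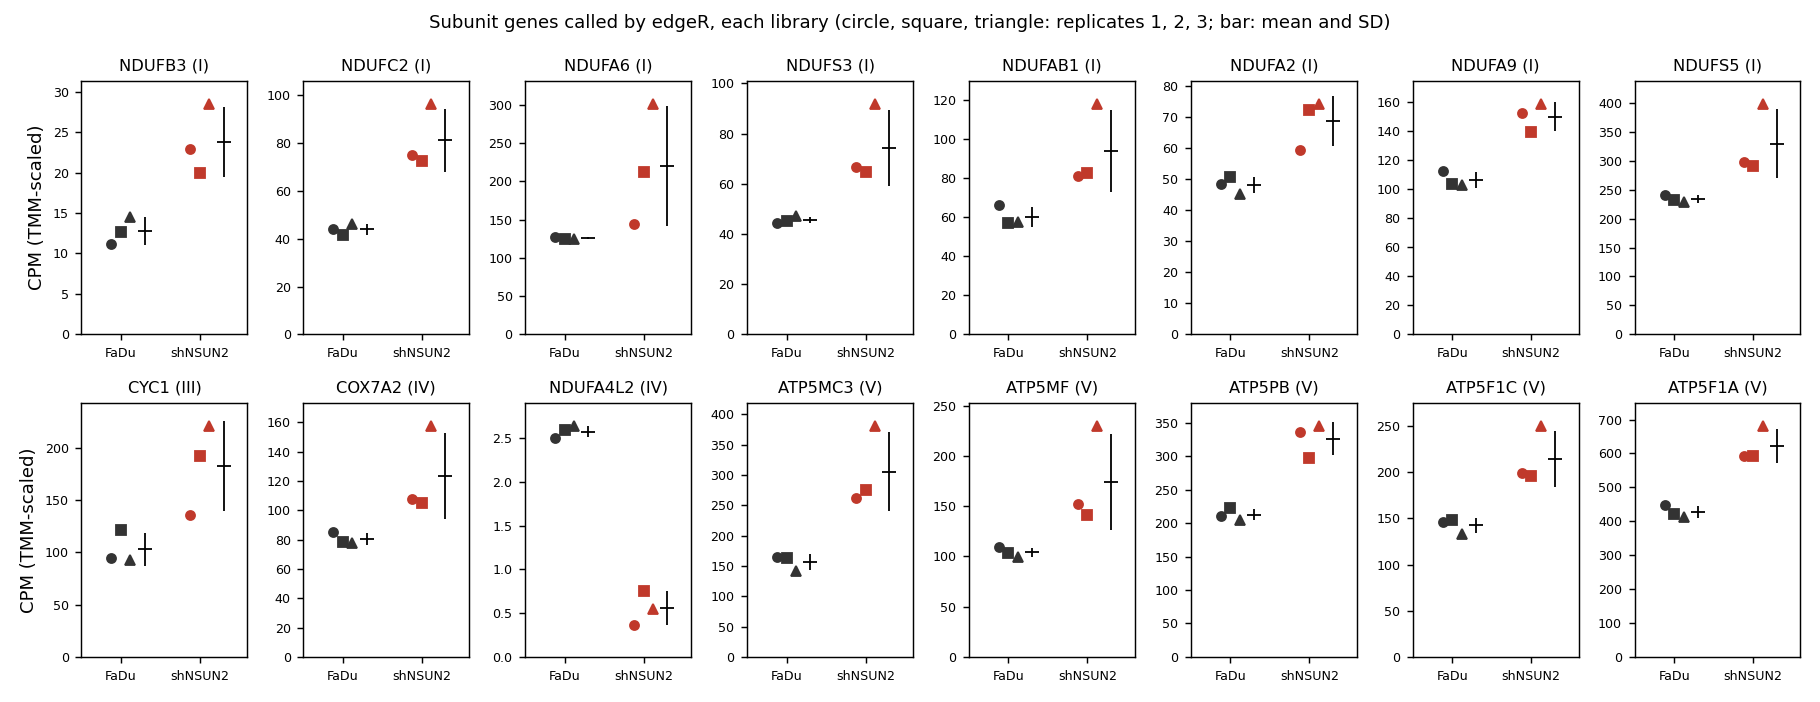
Level in CPM of the 16 subunit genes called by edgeR, with 1 point per library (circle, square and triangle for replicates 1, 2 and 3), the mean and the SD, each panel on its own linear axis from 0. In the 15 genes called higher the triangle of shNSUN2 is the top point, and NDUFA4L2 falls from between 2.50 and 2.63 CPM to between 0.369 and 0.758 CPM.

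Complex II, succinate dehydrogenase, joins the citric acid cycle to the respiratory chain, and 0 of its 4 genes were called by edgeR (0 at an unadjusted p under 0.05, and 0 by DESeq2). The matching shares over all genes were 8.54% higher and 9.97% lower, 16.4% and 17.3%, and 9.04% and 9.66%. With 4 genes, 0 calls cannot be told apart from these shares. SDHA, the flavoprotein, had 142, 143 and 143 CPM in FaDu and 138, 137 and 172 CPM in shNSUN2. SDHB, the iron-sulfur protein, had 101, 103 and 90.4 CPM against 105, 99.2 and 140 CPM (log2 fold change 0.22, SE 0.15). For the membrane anchors, SDHC gave 108, 107 and 97.9 CPM against 102, 95.7 and 129 CPM, and SDHD gave 101, 102 and 109 CPM against 119, 112 and 128 CPM (log2 fold change 0.21, SE 0.11). Only SDHD of the 4 had groups that did not overlap, where 20.3% of all tested genes had every shNSUN2 library above every FaDu library. Replicate 3 was the highest shNSUN2 library in all 4, and without it the median log2 fold change went from 0.13 to 0.0043. SDHC had the highest level per length of the 4, with 227 CPM per kilobase in FaDu and 237 in shNSUN2.

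Complex III, the cytochrome bc1 complex, had 1 of 10 genes called higher and 0 lower, close to the 8.54% called higher among all tested genes (9.97% lower). At an unadjusted p under 0.05 the counts were 6 and 0, against 16.4% and 17.3% of all. DESeq2 called 2 and 0, against 9.04% and 9.66% of its genes with an adjusted p. All 10 had a log2 fold change above 0 (8 without shNSUN2 replicate 3), with a median of 0.38 (0.22 without it). In 8 of the 10 every shNSUN2 library lay above every FaDu library, against 20.3% of all tested genes. The called gene was CYC1 (chromosome 8, 144095027 to 144097525), which encodes cytochrome c1, the subunit that hands electrons to cytochrome c. It had 94.7, 121 and 92.9 CPM in FaDu and 136, 192 and 221 CPM in shNSUN2. The lowest shNSUN2 library lay near the highest FaDu library, and both groups spread widely. The log2 fold change was 0.83 (SE 0.20, adjusted p = 0.0246 by edgeR), and 0.67 without shNSUN2 replicate 3. CYC1 lost its call without FaDu replicate 1 (adjusted p = 0.0905), FaDu replicate 3 (0.106) or shNSUN2 replicate 2 (0.0602). Without FaDu replicate 1 or 3 the complex therefore had 0 calls, and without shNSUN2 replicate 3 it had 3.

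The core protein UQCRC2 had a small spread in both groups, with 316, 318 and 316 CPM against 384, 381 and 365 CPM. Here replicate 3 was the lowest of the shNSUN2 libraries. The log2 fold change was 0.25 (SE 0.09, adjusted p = 0.104), and 0.28 without replicate 3 (adjusted p = 0.0258). UQCR10, a small accessory subunit, had 64.5, 64.2 and 70.0 CPM against 86.4, 84.6 and 130 CPM. It just missed the threshold (log2 fold change 0.60, SE 0.18, adjusted p = 0.0552) and passed it without replicate 3, at 0.37 and adjusted p = 0.0231. UQCRH, the hinge protein, had the highest level per length in the complex, at 532 CPM per kilobase in FaDu and 709 in shNSUN2, and in CPM it had 329, 329 and 306 against 389, 369 and 528. UQCRB, a ubiquinone-binding subunit, came next at 265 and 273 CPM per kilobase, with 174, 171 and 168 CPM against 174, 176 and 178 CPM. UQCRHL, an intronless paralogue of UQCRH, made up 5.14% ± 0.20 of the reads of the pair in FaDu and 5.06% ± 0.13 in shNSUN2 (SD, n = 3, exact permutation p = 0.6). Reads of such close copies may be divided by the counting step, so the levels of both are uncertain.

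Complex IV, cytochrome c oxidase, had genes on both sides of 0. Of 19 genes 15 were tested, and 1 was called higher and 1 lower, against 8.54% and 9.97% of all tested genes. At an unadjusted p under 0.05 the counts were 3 and 2, against 16.4% and 17.3% of all. DESeq2 called 1 and 1, against 9.04% and 9.66% of its genes with an adjusted p. Of the 15, 10 were above 0 and 5 below, and the median log2 fold change was 0.17 (0.02 without shNSUN2 replicate 3). The summed level was 1489, 1725 and 1571 CPM in FaDu and 1519, 1577 and 2088 CPM in shNSUN2, with overlapping groups and a ratio of means of 1.08 (0.97 without replicate 3). The gene called higher was COX7A2 (chromosome 6, 75237675 to 75250323), the form of subunit 7A common to most tissues. It had 85.4, 78.3 and 77.7 CPM against 108, 105 and 157 CPM (log2 fold change 0.62, SE 0.17, adjusted p = 0.0429 by edgeR, and 0.41 without shNSUN2 replicate 3). The call was kept without shNSUN2 replicate 2 (adjusted p = 0.0396) and replicate 3 (0.0163), and lost without any of the FaDu libraries (0.102, 0.141 and 0.148) or shNSUN2 replicate 1 (0.0605). So the count of genes higher in complex IV was 0 in those 4 fits and 2 without shNSUN2 replicate 3, where NDUFA4 joined it.

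NDUFA4L2 (ENSG00000185633, chromosome 12, 57234903 to 57240715) encodes a paralogue of NDUFA4 known as a target of hypoxia-inducible factor. It was the only subunit gene called lower, with the largest fold of the 16 called. Its level was 2.50, 2.59 and 2.63 CPM in FaDu and 0.369, 0.758 and 0.548 CPM in shNSUN2. The log2 fold change was -2.20 (SE 0.31, adjusted p = 0.00392 by edgeR), ranging from -2.48 to -1.97 when 1 library was left out (-2.19 without shNSUN2 replicate 3), with adjusted p of 0.00556 to 0.0211. The gene overlaps SHMT2, and strand was not stated for these counts. NDUFA4 itself had 118, 115 and 117 CPM against 141, 137 and 179 CPM (log2 fold change 0.38, SE 0.13, adjusted p = 0.081). As a share of the pair, NDUFA4L2 was 2.16% ± 0.07 in FaDu and 0.372% ± 0.155 in shNSUN2 (SD, n = 3, exact permutation p = 0.1, the smallest possible).

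The other tissue isoforms of complex IV were near or at 0. COX6B2 and COX8C, known from testis, were tested at very low levels and not called. COX6B2 had 0.441, 0.495 and 0.160 CPM in FaDu and 0, 0.0673 and 0.178 CPM in shNSUN2, and COX8C had 0.229, 0.239 and 0.0935 CPM against 0.177, 0.0337 and 0.0592 CPM. COX4I2, COX6A2, COX7A1 and COX7B2 did not pass the filter on low counts. COX6A2, known from heart and skeletal muscle, and COX7B2 were listed at 0 in all 6 libraries. COX7A1, the muscle form of subunit 7A, reached 0.0591 CPM in shNSUN2 replicate 1 and was listed at 0 in the other 5. COX4I2, an isoform known from lung, had 0.0534 CPM in FaDu replicate 3 and 0.0592 CPM in shNSUN2 replicate 3, and 0 elsewhere. The values of the genes that did not pass the filter are a few estimated counts at most, and no level was tested against 0.

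Among the common forms, COX6A1 had the highest level per length of all subunit genes, with 627 CPM per kilobase in FaDu and 735 in shNSUN2. In CPM it had 357, 361 and 358 against 366, 373 and 522, and without replicate 3 its log2 fold change went from 0.23 to 0.05. COX4I1, the common form of subunit 4, came next over all 6 libraries at 375 CPM per kilobase in FaDu and 260 in shNSUN2, where COX7C and COX6C had 269 and 262. It had 233, 326 and 335 CPM against 179, 163 and 277 CPM, with overlapping groups and a log2 fold change of -0.53 (SE 0.23, adjusted p = 0.145). Without shNSUN2 replicate 3 that became -0.80 (adjusted p = 0.0232), which made it a second gene called lower in the complex. COX7C, at 257 and 269 CPM per kilobase, had 149, 208 and 156 CPM against 183, 172 and 181 CPM. COX7B, COX6B1 and COX7A2L varied so much within groups that no direction can be read. COX7B had 39.2, 35.3 and 13.5 CPM against 23.4, 61.2 and 28.0 CPM, COX6B1 47.5, 82.9 and 43.9 CPM against 60.3, 59.9 and 91.9 CPM, and COX7A2L 73.1, 123 and 81.4 CPM against 56.8, 114 and 91.8 CPM. COX5B, COX8A and COX7A2L had log2 fold changes of 0.17, 0.17 and -0.08.

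Complex V, ATP synthase, had the highest median log2 fold change of the 5 complexes, 0.54 (0.32 without shNSUN2 replicate 3). Of its 15 genes 5 were called higher and 0 lower, against 8.54% and 9.97% of all tested genes, and 14 were above 0. At an unadjusted p under 0.05 the counts were 7 and 0, against 16.4% and 17.3% of all. DESeq2 called 7 and 0, against 9.04% and 9.66% of its genes with an adjusted p. Their summed level was 2606, 2680 and 2630 CPM in FaDu and 3316, 3051 and 4292 CPM in shNSUN2. The groups did not overlap, and the ratio of means was 1.35 (1.21 without replicate 3). The 5 calls became 2, 2 and 1 without FaDu replicates 1, 2 and 3. Whether complex V differed from the other complexes was not tested.

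The F1 part makes ATP, and 2 of its 5 genes, those for the alpha and gamma subunits, were called higher, against 8.54% of all tested genes. ATP5F1A, the alpha subunit (chromosome 18, 46080248 to 46104334), had 449, 421 and 414 CPM in FaDu and 592, 593 and 680 CPM in shNSUN2. The groups were apart by more than their spread, with a log2 fold change of 0.54 (SE 0.11, adjusted p = 0.0136 by edgeR). ATP5F1C, the gamma subunit that forms the central stalk (chromosome 10, 7788129 to 7807815), had 146, 149 and 133 CPM against 199, 196 and 250 CPM. Its log2 fold change was 0.59 (SE 0.13, adjusted p = 0.0198 by edgeR), and 0.47 without shNSUN2 replicate 3 for both genes. ATP5F1B, the catalytic beta subunit, had the highest level per length in the complex over all 6 libraries, at 403 CPM per kilobase in FaDu and 484 in shNSUN2 (ATP5MF had 322 and 539). Its libraries overlapped, with 708, 780 and 738 CPM against 890, 653 and 1127 CPM (log2 fold change 0.26, SE 0.19, adjusted p = 0.367). ATP5F1D, the delta subunit, had a large but uncertain log2 fold change of 0.88 (SE 0.40, adjusted p = 0.169). It had 10.3, 9.25 and 15.6 CPM against 23.2, 10.2 and 31.4 CPM. ATP5F1E, the epsilon subunit, had 147, 152 and 153 CPM against 156, 157 and 178 CPM.

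The peripheral stalk holds F1 in place, and 1 of its 4 genes was called higher, against 8.54% of all tested genes. ATP5PB, the stalk's b subunit (chromosome 1, 111448864 to 111462773), had 211, 222 and 206 CPM in FaDu and 337, 298 and 345 CPM in shNSUN2. Replicate 3 was close to replicate 1 here, and the log2 fold change of 0.62 (SE 0.11, adjusted p = 0.00859 by edgeR) was 0.58 without it. The adjusted p was 0.0548 without FaDu replicate 3. ATP5PO, the oligomycin sensitivity subunit, had 199, 202 and 305 CPM against 196, 185 and 282 CPM and was the 1 gene of the complex under 0 (-0.09). In the membrane part, ATP5MF, the f subunit (chromosome 7, 99448475 to 99466331), had 109, 103 and 99.8 CPM against 152, 141 and 229 CPM. Its log2 fold change was 0.74 (SE 0.19, adjusted p = 0.031 by edgeR), and 0.50 without shNSUN2 replicate 3 (adjusted p = 0.00841). A read-through gene with PTCD1 that overlaps it reached at most 0.202 CPM in any library. ATP5MG, the g subunit, had 106, 158 and 88.1 CPM against 110, 183 and 274 CPM, which is too wide a spread for a call (log2 fold change 0.69, SE 0.35, adjusted p = 0.222).

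Of the 3 genes for subunit c, 1 was called higher, ATP5MC3 (ENSG00000154518), against 8.54% of all tested genes. It had the largest log2 fold change of the 15 subunit genes called higher. ATP5MC3 had 165, 162 and 141 CPM in FaDu and 262, 274 and 380 CPM in shNSUN2. The lowest shNSUN2 library was far above the highest FaDu library, with a log2 fold change of 0.97 (SE 0.16, adjusted p = 0.00748 by edgeR), from 0.78 to 1.07 when 1 library was left out, and adjusted p of 0.00285 to 0.0443. ATP5MC1 had 40.1, 37.3 and 35.8 CPM against 52.6, 44.8 and 77.9 CPM (log2 fold change 0.63, SE 0.20, adjusted p = 0.0681). ATP5MC2 had 86.0, 61.4 and 84.5 CPM against 96.8, 89.5 and 115 CPM (0.38, SE 0.17, adjusted p = 0.159). Together the 3 genes summed to 271 ± 17.2 CPM in FaDu and 464 ± 93.7 CPM in shNSUN2 (SD, n = 3), with 412, 409 and 572 CPM in the shNSUN2 libraries and at most 291 CPM in FaDu.

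The division among the 3 genes within a library is a measure that library scaling cannot move. ATP5MC3 made up 56.7, 62.2 and 54.0% of their reads in FaDu and 63.7, 67.1 and 66.3% in shNSUN2. Every shNSUN2 library lay above every FaDu library, by a small margin over FaDu replicate 2. The mean share was higher by 8.11 percentage points, from 57.6% ± 4.18 to 65.7% ± 1.80 (SD, n = 3), with p = 0.1 in an exact two-sided permutation test, the smallest possible. So the difference cannot pass a threshold of 0.05 in this design. Over the fits leaving out 1 library the difference was 6.30 to 10.4 points, and 7.80 without shNSUN2 replicate 3. Per kilobase of transcript the share went from 52.9% to 61.0%. The share of ATP5MC2 went from 28.5% ± 4.49 to 21.8% ± 1.74 and that of ATP5MC1 from 13.9% ± 0.32 to 12.5% ± 1.36. ATP5MC1 and ATP5MC2 have 7 and 3 named pseudogenes, which may take some of their reads, and ATP5MC3 has 0 by that name.

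**Figure D5:**
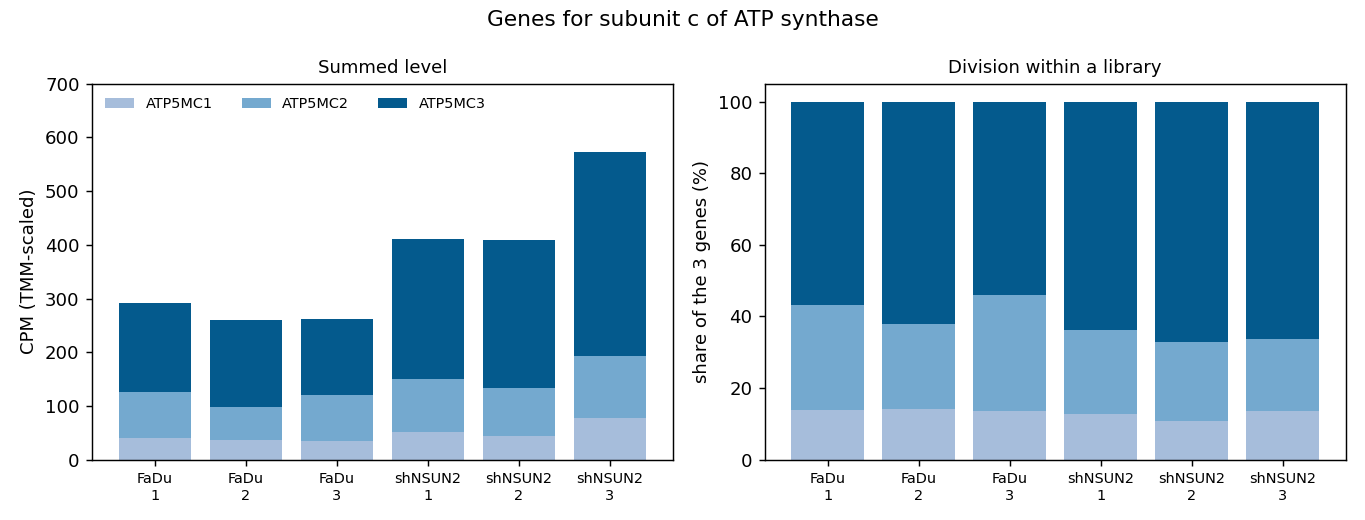
Genes for subunit c of ATP synthase in each library, as summed level in CPM (left, stacked bars from 0) and as the share of each gene in percent of the 3 genes' reads (right). ATP5MC3 is the largest part in every library, at 54.0 to 62.2% in FaDu and 63.7 to 67.1% in shNSUN2.

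The mitochondrial genome has 13 mRNAs, which encode subunits of complexes I, III, IV and V. Of these, 10 were called lower in shNSUN2 by edgeR and 0 higher, against 9.97% and 8.54% of all tested genes. At an unadjusted p under 0.05 the counts were also 10 and 0, against 17.3% and 16.4% of all. DESeq2 gave 10 and 0, against 9.66% and 9.04% of its genes with an adjusted p. The 7 mitochondrial mRNAs of complex I summed to 37636, 35927 and 29906 CPM in FaDu and 18135, 17817 and 15863 CPM in shNSUN2 (ratio of means 0.50, and 0.52 without shNSUN2 replicate 3). The ratio was 0.59 for complex III (1 mRNA) and 0.51 for complex IV (3 mRNAs), each with every shNSUN2 library below every FaDu library. For complex V (2 mRNAs, 1 called lower) the ratio was 0.67 with overlapping groups. Its sums were 3603, 3323 and 2438 CPM in FaDu and 1551, 3341 and 1406 CPM in shNSUN2, so only shNSUN2 replicate 2 overlapped with FaDu. Without shNSUN2 replicate 3 the ratios for complexes III, IV and V were 0.58, 0.52 and 0.78, and the same number of mRNAs, 10, was called lower. The nuclear sums gave ratios of 1.23, 1.27, 1.08 and 1.35 for complexes I, III, IV and V, and 1.10 for complex II, where the groups overlapped. In these whole-cell libraries, fewer mitochondria or mitochondrial genomes per cell and less RNA from each cannot be told apart.

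The genes that build and feed the complexes were read from lists of 106 genes, of which 104 were tested. Of these, 13 were called higher and 1 lower, against 8.54% and 9.97% of all tested genes, and their median log2 fold change was 0.22 against -0.01 over all genes. Without shNSUN2 replicate 3, 12 were called higher and 6 lower, against 10.5% and 11% of all tested genes, and the median was 0.11. Complex I assembly factors had 3 of 19 called higher and 1 lower. ACAD9, an assembly factor that is also an acyl-CoA dehydrogenase, had 39.6, 43.2 and 38.0 CPM against 79.8, 66.4 and 98.8 CPM. It had a log2 fold change of 1.02 (SE 0.16, adjusted p = 0.00627 by edgeR), above the highest positive value of the subunit genes. Its adjusted p was at most 0.0383 when 1 library was left out. DMAC2 and TIMMDC1, which act in building the membrane arm, had log2 fold changes of 1.11 (SE 0.28, adjusted p = 0.0333) and 0.61 (SE 0.18, adjusted p = 0.048), and neither was called without shNSUN2 replicate 3 (0.0979 and 0.0783). NUBPL, which inserts iron-sulfur clusters into complex I, was lower, with 32.3, 33.6 and 31.8 CPM against 22.2, 21.5 and 21.7 CPM (log2 fold change -0.58, SE 0.11, adjusted p = 0.0135 by edgeR). Its values were tight in both groups, though its adjusted p reached 0.0712 with 1 library left out.

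Over all tested genes, edgeR called 8.54% higher and 9.97% lower, and 16.4% and 17.3% passed at an unadjusted p under 0.05. DESeq2 called 9.04% and 9.66% of its genes with an adjusted p. Complex IV assembly factors had 3 of 23 called higher and 0 lower (8 and 0 at an unadjusted p under 0.05, and 3 and 0 by DESeq2). These were COX16 at a log2 fold change of 0.65 (SE 0.13, adjusted p = 0.0142 by edgeR), COA4 at 0.67 (SE 0.18, adjusted p = 0.0369) and PET100 at 1.00 (SE 0.23, adjusted p = 0.0208). SCO2 matched 2 identifiers in the table and was left out. Assembly factors of complexes II and III had 0 calls among 4 and 6 genes, and the complex V list of assembly factors and regulators had 0 among 8. That list also holds ATP5MPL and ATP5MD, subunit genes of ATP synthase that are not among the subunit genes counted above. Their log2 fold changes were 0.52 (SE 0.16, adjusted p = 0.0600 by edgeR) and 0.47 (SE 0.17, adjusted p = 0.0949). Without shNSUN2 replicate 3 the adjusted p values were 0.041 and 0.0952. At an unadjusted p under 0.05 the lists of complexes II, III and V had 0, 1 and 3 genes higher and 0, 1 and 1 lower. DESeq2 called 0, 0 and 2 of them higher and none lower. Of the mobile carriers and ubiquinone synthesis enzymes, 2 of 17 were called higher. CYCS, which encodes cytochrome c, had 139, 145 and 134 CPM against 231, 184 and 244 CPM (log2 fold change 0.66, SE 0.13, adjusted p = 0.0142 by edgeR). PDSS1, a subunit of the enzyme that makes the ubiquinone side chain, had a log2 fold change of 0.84 (SE 0.18, adjusted p = 0.0182).

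Pyruvate dehydrogenase and citric acid cycle genes had 5 of 18 called higher and 0 lower (8 and 1 at an unadjusted p under 0.05, and 5 and 0 by DESeq2). The matching shares over all genes were 8.54% and 9.97%, 16.4% and 17.3%, and 9.04% and 9.66%. FH, fumarase, had 75.9, 76.3 and 69.5 CPM against 101, 101 and 114 CPM (log2 fold change 0.51, SE 0.12, adjusted p = 0.0203 by edgeR). The groups did not overlap in FH, nor in DLAT of pyruvate dehydrogenase (0.48, SE 0.12, adjusted p = 0.0249), IDH3G of isocitrate dehydrogenase (0.88, SE 0.20, 0.0213) or DLST of 2-oxoglutarate dehydrogenase (0.46, SE 0.11, 0.0262). Of the regulators of respiratory genes, 9 of 10 were tested and 0 called, with 3 higher and 0 lower at an unadjusted p under 0.05 and 1 called higher by DESeq2. All of the partner genes named here as called, other than ACAD9, lost their call in at least 1 fit that left out a library. PPARGC1A, a coactivator of mitochondrial biogenesis, was the gene not tested, at no more than 0.254 CPM in any library.

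Some subunit genes cannot be counted with certainty. In GENCODE 29, 159 pseudogenes carry the name of 45 of the 85 subunit genes, most for COX6C (17) and for NDUFA5 and NDUFB4 (12 each), and 53 subunit genes overlap another annotated gene. Of the 16 called genes, NDUFS5 and ATP5MF had 6 and 5 such pseudogenes and ATP5PB and ATP5F1A 7 each, while NDUFC2, NDUFB3, NDUFA2, NDUFS3, NDUFA6, CYC1, NDUFA4L2 and ATP5MC3 had 0. The 7 genes with a coefficient of variation above 25% in both groups were COX6B1, COX7B, COX6B2, COX8C, COX7A2L, ATP5F1D and ATP5MG, against a median over the 81 genes of 5.63% in FaDu and 21.2% in shNSUN2 (4.16% over shNSUN2 replicates 1 and 2).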

How the data were processed

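RNA sequencing libraries of FaDu cells, 3 without a hairpin and 3 with an shRNA against NSUN2, were read from 1 deposited table of estimated counts per Ensembl gene identifier, as the authors left it. Tools named in the submitters' processing notes are StringTie 1.3.0, HISAT2 2.0 and Bowtie 0.12.2, with no roles, beside a mouse build although the identifiers are human. Which human build, annotation, counter or strand setting was used is not given in the sources used here. Values are whole numbers and entered the fits unchanged. In each library the value 4 was 3.25 to 3.81 times more frequent than its neighbours 3 and 5 on average, so values are not plain fragment counts and no counting interval is given.

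Symbols, positions and lengths (median over basic protein-coding transcripts) are from GENCODE 29 on GRCh38 (58552 of 58825 identifiers) and a gene name table. The test was that of edgeR 4.0.16 under R 4.3.3 (glmQLFit and glmQLFTest, robust, TMM, filterByExpr with minimum count 10 and minimum total 15, group only, two-sided), with Benjamini-Hochberg adjustment over 19081 genes. The SE is the log2 fold change divided by the square root of F. CPM use TMM-scaled totals of the tested genes. The procedure was tested on simulated data. Shares and NSUN2 were compared by exact permutation. Alternatives were DESeq2 size factors, DESeq2 1.42.0, no low-count filter, a replicate block, a GC and length correction (mgcv 1.9.3) and each library left out.

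The text names NSUN2, every called subunit gene, in each complex the 3 genes with the highest CPM per kilobase and the 2 with the largest absolute log2 fold change, all tissue or paralogous isoforms, genes not tested, and at most 4 called genes of each partner list. The subunit genes and lists were chosen with earlier results of these data known. Single values of 1 subunit gene are not reported here, and it stays in the counts and medians.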

Additional observations from a re-analysis of the deposited data

How the results depend on the processing

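The median log2 fold change of the 81 subunit genes stayed between 0.16 and 0.39 in all alternatives, with all-gene medians of -0.08 to 0.002. All 16 calls were kept with DESeq2 size factors and with DESeq2, and 14 without a filter on low counts. NSUN2 stayed called lower and the ATP5MC3 share stayed higher throughout. The number of calls depended more on the setting. Leaving out 1 library at a time gave 3 to 17 genes called higher and 1 to 2 lower, with 1 to 7 higher in complex I, 0 to 3 in III, 0 to 2 in IV and 1 to 7 in V, and 1 to 2 lower in IV. DESeq2 called 2 genes higher in complex III. The GC and length correction kept 15 of the 16 calls, and the median log2 fold change was 0.23. It gave 17 subunit genes higher in all, where 2415 of 19033 genes were called higher, and 3 of the 17 were in complex III. It gave 3 genes lower in all (1 in complex I and 2 in complex IV), where 2363 of all genes were called lower. It added calls for NDUFV1, UQCRC2, UQCR10, COX4I1 and ATP5MC1 and removed NDUFA6, and it turned the sign of NDUFS1 (0.00958), NDUFS7 (-0.0603), NDUFS8 (-0.058), SDHC (-0.0269) and ATP5ME (-0.0373). The cause of these differences was not tested.

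Signs that turned with 1 library left out belonged to genes that were not called. Over those 6 fits the log2 fold change ran from -0.199 to 0.244 for NDUFS7, -0.13 to 0.225 for NDUFS8, -0.102 to 0.22 for NDUFA1, -0.0209 to 0.31 for NDUFA11, -0.147 to 0.403 for NDUFA13, -0.069 to 0.342 for NDUFB1, -0.0501 to 0.121 for SDHA, -0.0723 to 0.149 for SDHC, -0.0281 to 0.286 for UQCRC1, -0.0206 to 0.386 for UQCRQ, -0.0988 to 0.303 for COX5B, -0.0429 to 0.275 for COX8A and -0.085 to 0.27 for ATP5ME, each lowest value being that without shNSUN2 replicate 3. For genes turned by other libraries it ran from -0.189 to 0.623 for COX7B, -0.0266 to 0.229 for COX7C, -0.312 to 0.181 for COX7A2L and -0.301 to 0.14 for ATP5PO.

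With the replicate number as a block, 969 of all genes were called higher in place of 1629 and 1401 lower in place of 1903. Of the subunit genes 7 were called higher in place of 15, with 3 in place of 8 in complex I, 0 in place of 1 in complex IV and 3 in place of 5 in complex V. The series describes its repeats as paired but gives no account of what the members of a pair have in common. Libraries of the same number did not deviate together (r of -0.036, 0.024 and 0.007 across genes), and whether the numbers mark true pairs is not known.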
